A study of Mus musculus with 2 samples.

Results

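The receptors for the Fc part of IgG and the genes through which they signal were followed in samples labelled as macrophages from mouse dorsal root ganglia, which hold the cell bodies of sensory nerve cells. The set was chosen by gene symbol and holds 8 genes of the 49315 in the deposited table: the IgG receptor genes Fcgr1, Fcgr2b, Fcgr3 and Fcgr4, the inhibitory receptor gene Pirb, the adaptor genes Tyrobp and Fcer1g, and the kinase gene Syk. Each symbol matched 1 row. RNA-seq was done on 1 library from mice kept at 21% oxygen (normoxia) and 1 library from mice under chronic intermittent hypoxia, in which chamber oxygen fell from 21% to 8% and returned in cycles of 6 min, 10 cycles per hour, 8 h per day for 14 days. The normoxia mice went through the same procedure with room air from both valves, and experiments took place about 18 h after the last exposure in both groups. The sources used here do not state the strain, age or sex, how many mice stand behind each library, or how the macrophages were isolated. The normoxia column of the table matches its sample by number and initial, the hypoxia column by its initial alone. With 1 library per group no difference has a replicate check, and all intervals cover counting error only.

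Fc gamma receptors bind antibody on coated particles and immune complexes. The activating receptors lack a signalling motif of their own and pair with the adaptor Fcer1g, whose tail carries an immunoreceptor tyrosine-based activation motif (ITAM). Src family kinases phosphorylate the motif, Syk docks on it, and the cell engulfs the particle or releases mediators. Tyrobp, also called DAP12, carries an ITAM for other myeloid receptors such as Trem2. Fcgr2b and Pirb carry the opposite kind of motif, an inhibitory one (ITIM), which recruits phosphatases that quench the same pathway. Macrophages, monocytes and neutrophils all express most of these genes, B cells express Fcgr2b, and mast cells and NK cells use Fcer1g.

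The coding bases of the motifs are shown because the adaptors carry an ITAM and the inhibitory receptors an ITIM. They come from GENCODE M21 transcripts on GRCm38, 5′ to 3′ on the coding strand, with the tyrosine codons that become phosphorylated in capitals. An ITAM was searched in the translated coding sequence as tyrosine, any pair of residues and leucine or isoleucine, repeated after 6 to 8 residues. Among the 8 genes it was found in Tyrobp and Fcer1g alone, with a spacer of 7 residues in both. In Tyrobp it spans codons 92 to 106 of 114 (chromosome 7, 30415670 to 30417382, across exons 4 and 5), and in Fcer1g codons 65 to 79 of 86 (chromosome 1, 171229889 to 171230072, across exons 4 and 5). Of the 45 bases, 19 are the same in both genes.
Tyrobp ITAM: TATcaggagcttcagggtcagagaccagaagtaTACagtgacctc
Fcer1g ITAM: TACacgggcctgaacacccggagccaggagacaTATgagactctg
The ITIM was searched as isoleucine, leucine, valine or serine, any residue, tyrosine, any pair of residues and isoleucine, leucine or valine. This short pattern also matches in genes other than the inhibitory receptors, with 3 matches in Fcgr1 and 1 each in Fcgr4, Tyrobp and Fcer1g. The Tyrobp match, at codons 90 to 95, overlaps its ITAM. A match alone is therefore not a working motif. In Fcgr2b the only match lies at codons 317 to 322 of 340 (chromosome 1, 170961071 to 170961088, exon 10). Pirb has 4 matches, and the last ones, at codons 792 and 822 of 841 in exon 15, are the known phosphatase-binding sites of its tail.
Fcgr2b ITIM: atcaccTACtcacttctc
Pirb ITIM at codon 792: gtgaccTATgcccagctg
Pirb ITIM at codon 822: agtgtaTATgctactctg

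Depth was 15.0-fold apart, with 2171348 counts over 4640 genes in normoxia against 145056 counts over 2050 genes in hypoxia. Genes counted in 1 library alone had a median of 229 counts in normoxia and 39 in hypoxia (genes with at least 10 counts), which is used here as an estimate of the reads per starting molecule and rests on an untested assumption. Of the genes counted, 9.55% in normoxia and 11.9% in hypoxia had 1 to 9 counts, fewer than the estimate gives to 1 molecule. The estimate is therefore rough. By this estimate, a gene with 3 molecules holds 316 CPM in normoxia (counts scaled to the library total) and 807 CPM in hypoxia. The markers of the labelled cell type were mostly counted in normoxia and mostly at 0 in hypoxia. Most genes were also at 0 there: of all genes with at least 50 counts in normoxia, 27% were counted in hypoxia. Of 14 macrophage markers (members of the set left out), 11 were counted in normoxia and 2 in hypoxia, Mpeg1 and Cx3cr1, and together they took 0.644% of counts in normoxia and 0.0324% in hypoxia, with Adgre1, Cd68, Csf1r and the C1q genes at 0 in hypoxia and Mertk and Aif1 at 0 in both. Neutrophil markers took 1.86% and 10.3%, with 11 of 15 counted in each library and 7 in both, and red cell markers 9.56% and 7.87%, with 8 and 6 counted. S100a8, S100a9, Ngp, Camp and Lcn2 held most of the neutrophil counts in both libraries. Mmp8, Mmp9, Mcemp1 and Mpo had 312 to 522 counts in normoxia and 0 in hypoxia. Ly6g, Csf3r, Elane and Cxcr2 went the opposite way, with 110, 40, 29 and 1 counts under hypoxia and 0 under normoxia. Monocyte markers took 0.489% and 0.304%, with 8 and 3 of 8 counted. B cell markers took 0.0397% and 0.0972%, with 4 and 2 of 9 counted and Ms4a1 at 0 in both. The 7 mast cell and basophil markers and the 6 platelet markers were at 0 in both libraries, and of 10 T and NK cell markers Cd4 alone was counted, in normoxia. In such bulk RNA, fewer cells of a type and less RNA per cell cannot be told apart, and the part of these cell types in the results below was not tested.

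All 8 genes were counted in the normoxia library and 4 in the hypoxia library. The activating receptor genes Fcgr1, Fcgr3 and Fcgr4 were at 0 in hypoxia, and the inhibitory Fcgr2b held 8 counts there. The adaptor Fcer1g was 5.63-fold lower in hypoxia after scaling, whereas the adaptor Tyrobp and the inhibitory Pirb differed by less than 2-fold. Together the 8 genes held 7570 counts in normoxia, 0.349% of the library (exact 95% binomial interval 0.341 to 0.357), and 215 in hypoxia, 0.148% (0.129 to 0.169). TMM scaling (trimmed mean of M values) draws on the 1158 genes counted in both libraries. After it, hypoxia over normoxia stood at 0.244; the exact interval was 0.212 to 0.279 for reads and 0.0792 to 0.606 for estimated molecules. On total counts it was 0.425, with 0.138 to 1.06 on molecules. The sum is weighted by Tyrobp, which took 25.7% of the set's counts in normoxia and 56.3% in hypoxia. Without Tyrobp the ratio was 0.143.

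**Figure D1:**
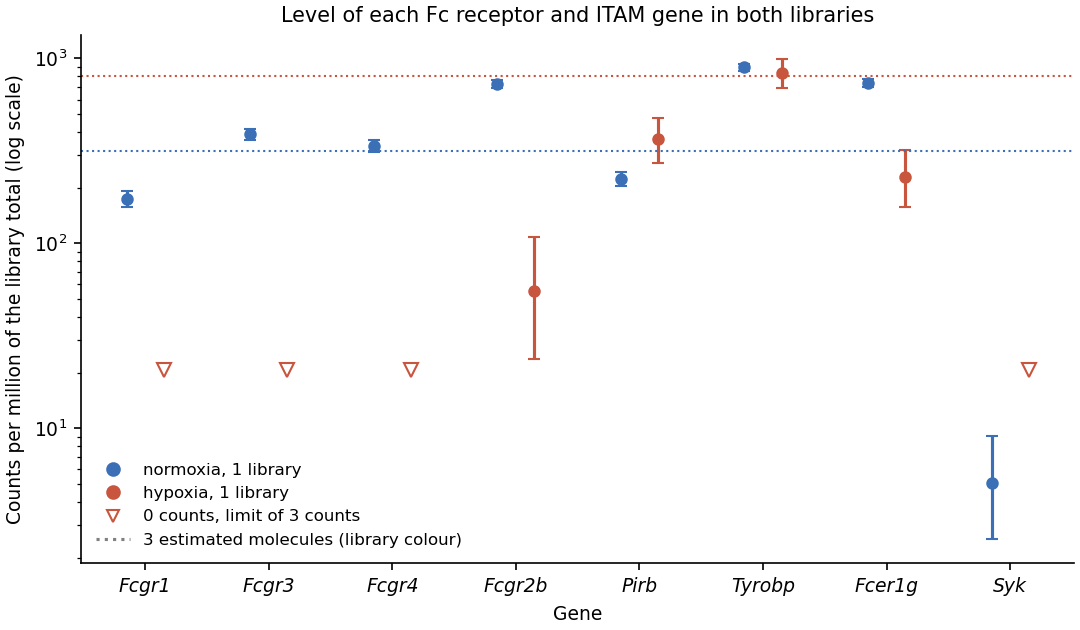
Level of each gene in CPM (log axis) in normoxia (blue) and hypoxia (red), 1 library each. Bars are exact 95% Poisson intervals, open triangles mark 0 counts at the limit of 3 counts (20.7 CPM), and dotted lines mark 3 estimated molecules. Tyrobp alone reaches the line of its hypoxia library, at 834 CPM.

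The counts of most members must be read against the whole library. A gene was called lower or higher at a ratio of scaled counts of at least 2-fold, among genes with at least 50 counts over both libraries, with a 0 taken as 3 counts. Of the 8 members 7 passed this count minimum, 5 were called lower, 0 higher and 2 neither. Over all 4215 genes measured, 75.6% were called lower and 11.9% higher, so the members' share is near the background and is no result about them. The median log2 ratio was −3.87 over the 7 members and −2.75 over all genes measured. Both medians are set by the limit of 3 counts, since 2872 of the 4215 genes were called lower with 0 counts in hypoxia and the members' median is the limit of Fcgr1. With each 0 taken as 3 estimated molecules, the median of all genes was 1.55. On total counts the median of all genes moved to −1.95, with 67% of all genes called lower and 16.1% higher. The 5 members called lower stayed the same on total counts, on DESeq2 size factors, on a housekeeping list and on the deposited TPM. On a rule that also asks for an interval on estimated molecules below 1, 0 members were called lower, against 1.3% of all genes (55). No p-value was computed by edgeR or another tool.

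Being counted at all in hypoxia was more usual for abundant genes. Of all genes with at least 50 counts in normoxia, 27% were counted in hypoxia, and of the members 4 of 7. Among genes with at least 800 and under 3200 counts in normoxia it was 59.6%, and of the members in that band 3 of 4, namely Tyrobp, Fcer1g and Fcgr2b, with Fcgr3 at 0. Among genes with at least 200 and under 800 counts it was 24.2%, and of the members 1 of 3, namely Pirb, with Fcgr1 and Fcgr4 at 0.

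**Figure D2:**
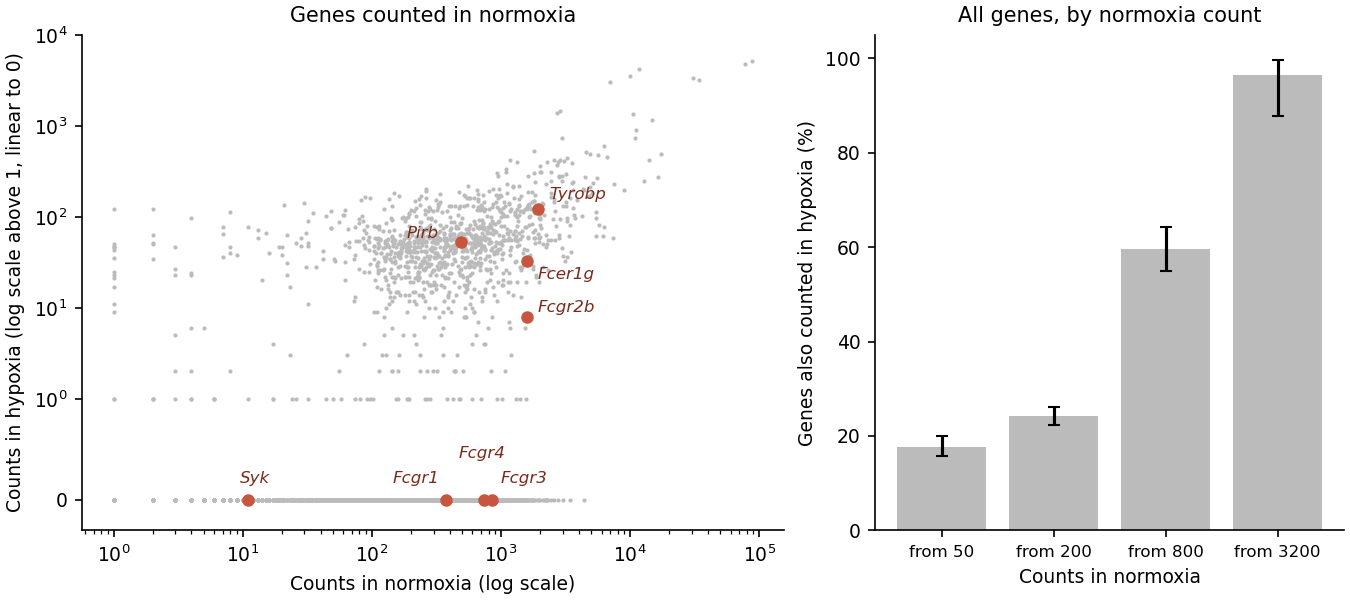
Left, counts in hypoxia against counts in normoxia for each gene counted in normoxia (grey) and the 8 members (red); both axes are logarithmic, with a linear stretch to 0 on the vertical axis. Right, percent of all genes also counted in hypoxia by normoxia count (each bar starts at the count named and ends before the next), with exact 95% binomial intervals; the share runs from 17.8% to 96.4%, and the members lie in the middle bands apart from Syk.

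The high-affinity IgG receptor gene Fcgr1 (ENSMUSG00000015947, chromosome 3, 96282909 to 96293969 in GRCm38, the build of every position given) was counted 377 times in normoxia and never in hypoxia. Its level in normoxia was 173.6 CPM (156.5 to 192.1), and a 0 in hypoxia allows up to 20.7 CPM. On reads, with the 0 taken as 3 counts, the gene was at least 14.7-fold lower in hypoxia after TMM and at least 8.40-fold lower on total counts. At the share it held in normoxia, the hypoxia library would have held 25.2 reads, or 0.646 estimated molecules, so that at this depth a 0 was not distinguishable from sampling on molecules. The upper limit of its ratio on molecules was 12.3.

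Fcgr3, a low-affinity activating receptor gene (ENSMUSG00000059498, chromosome 1, 171051174 to 171064935), had 846 counts and 0. This was 390 CPM in normoxia (364 to 417) and at least 32.9-fold lower in hypoxia on reads. The share of normoxia would have given 56.5 reads, or 1.45 molecules, and the upper limit of the ratio on molecules was 2.5. Fcgr4 (ENSMUSG00000059089, chromosome 1, 171018920 to 171029761), the receptor gene that binds the IgG2 subclasses of the mouse, had 733 counts and 0. At 338 CPM in normoxia (314 to 363) it was at least 28.5-fold lower on reads, with an expected 49.0 reads, or 1.26 molecules, and an upper limit of 3.16 on molecules. The 3 activating receptor genes were thus all at 0 in hypoxia, with 1956 counts and 0 in sum. Over all genes measured 75.6% were called lower, so the shared direction is no result about these receptors. Each of the upper limits on molecules is above 1.

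Fcgr2b, the inhibitory IgG receptor gene (ENSMUSG00000026656, chromosome 1, 170958617 to 170976547), kept 8 counts in hypoxia of a normoxia count of 1578. Its levels were 727 CPM (691 to 764) and 55.2 CPM (23.8 to 108.7). The gene was 23.0-fold lower in hypoxia, which is a ratio of 0.0435 (reads, 0.0187 to 0.0859; molecules, up to 1.17). The 8 reads amount to 0.205 of an estimated molecule. At its normoxia share 105.4 reads, or 2.70 molecules, would have been counted. Fcgr2b supplied 44.7% of the normoxia counts of the 4 Fc gamma receptor genes (43.0 to 46.3) and all 8 in hypoxia. The 4 genes together had 3534 counts and 8, a ratio of 0.0194 on reads. The upper limit of this ratio on molecules was 0.442 after TMM and 0.772 on total counts. Each of the 4 alone had an upper limit above 1 on molecules. The sum was not among the planned results and pools genes that were each called lower on reads. A limit below 1 for it is therefore no separate support for a difference. It also has no counterpart over all genes, of which 75.6% were called lower.

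Fcgr2b and Fcgr3 lie close together on chromosome 1 and are near copies over the part that binds antibody. Their coding sequences were identical at 83.9% of aligned bases, against 63.5% for Fcgr2b and Fcgr4 and 59.7% for Fcgr1 and Fcgr2b. Of all runs of 50 bases in Fcgr3 transcripts 9.58% also occur in Fcgr2b. The longest run that both coding sequences share is 129 bases long and is shown because reads from it fit either gene. It lies in exons 5 and 6 of Fcgr2b (170966674 to 170968081, with an intron between) and in exons 3 and 4 of Fcgr3 (171054167 to 171057792).
Fcgr2b and Fcgr3 shared run: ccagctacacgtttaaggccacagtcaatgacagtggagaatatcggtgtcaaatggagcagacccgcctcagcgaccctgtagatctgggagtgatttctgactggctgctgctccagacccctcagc
The sources used here state neither the read length nor the handling of reads that fit several genes, so the split between these genes is uncertain. The pair, added to the planned results, summed to 2424 counts against 8. Its ratio was 0.0283 (reads, 0.0122 to 0.0559), and the upper limit on molecules was 0.685 after TMM and 1.20 on total counts. Of the runs of 50 bases in Fcgr2b transcripts, 6.95% occur in other genes, 146 in all with Fcgr3 among them. No run of 50 bases in Fcgr1, Fcgr4, Tyrobp, Fcer1g or Syk occurred in another gene's transcripts. The genes annotated across Fcgr2b, Fcgr3 and Fcgr4 (Gm38204, Mir6546 and Gm26110) were at 0 in both libraries; they are outside the rule for named genes.

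Pirb, the inhibitory receptor gene for MHC class I molecules (ENSMUSG00000058818, chromosome 7, 3711409 to 3720391), went from 485 counts in normoxia to 53 in hypoxia. Its levels were 223 CPM (204 to 244) and 365 CPM (274 to 478), so that it was the only member with a higher share in hypoxia. The direction depended on the scaling, with a ratio of 0.937 after TMM (0.692 to 1.25 on reads), 1.64 on total counts and 1.26 on TPM. On molecules the TMM interval ran from 0.0354 to 14.2, on both sides of 1. Pirb supplied 23.5% of the inhibitory pair's normoxia counts and 86.9% of those in hypoxia; the intervals of these shares on molecules, 3.27 to 61.2% and 5.63 to 100%, overlap.

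Pirb also sits in a family of close copies, the activating Pira genes. Of its transcripts' runs of 50 bases, 34.0% occur in other genes. These are 500 genes in all, and 9 of them share at least 100 such runs with it. In normoxia these 9 held 3 counts in sum. In hypoxia they held 81, all from Gm14548, which shares 17.7% of Pirb's runs and is named after its values were seen. Pirb and its copies summed to 488 and 134 counts. The ratio of these sums was 2.36 after TMM (reads, 1.93 to 2.86; molecules, 0.311 to 24.8) and 4.11 on total counts, a sum added after seeing the data. How reads were divided among these copies cannot be told from the tables.

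Tyrobp, the adaptor gene with the ITAM shown first (ENSMUSG00000030579, chromosome 7, 30413760 to 30417585), had the most counts of the set in both libraries, 1947 in normoxia and 121 in hypoxia. These were 897 CPM (857 to 937) and 834 CPM (692 to 997), and the intervals overlap. Its ratio was 0.930 on total counts and 0.853 on the housekeeping list. After TMM it was 0.533 (0.440 to 0.641 on reads, 0.0951 to 2.15 on molecules), short of the 2-fold rule. With 8.50 and 3.10 estimated molecules it was the only member above 3 molecules in hypoxia.

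Fcer1g, the adaptor gene that the activating IgG receptors need (ENSMUSG00000058715, chromosome 1, 171229572 to 171234365), had 1593 counts and 33. Its levels of 734 CPM (698 to 771) and 227 CPM (157 to 319) do not overlap on reads. The gene was 5.63-fold lower after TMM, a ratio of 0.178 (0.122 to 0.251 on reads), and 3.22-fold lower on total counts. On molecules, with 6.96 and 0.846, the TMM interval ran from 0.00223 to 1.55. The adaptors therefore differed from each other on reads. Of the adaptor counts, Tyrobp supplied 55.0% (53.3 to 56.6) under normoxia and 78.6% (71.2 to 84.8) under hypoxia, whereas on molecules the intervals were 28.4 to 79.7% and 21.5 to 99.7%. The adaptors took 50.0% of the counts of adaptors and Fc gamma receptors in normoxia and 95.1% in hypoxia (90.5 to 97.8 on reads), with molecule intervals of 31.6 to 68.5% and 36.2 to 100% that overlap.

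**Figure D3:**
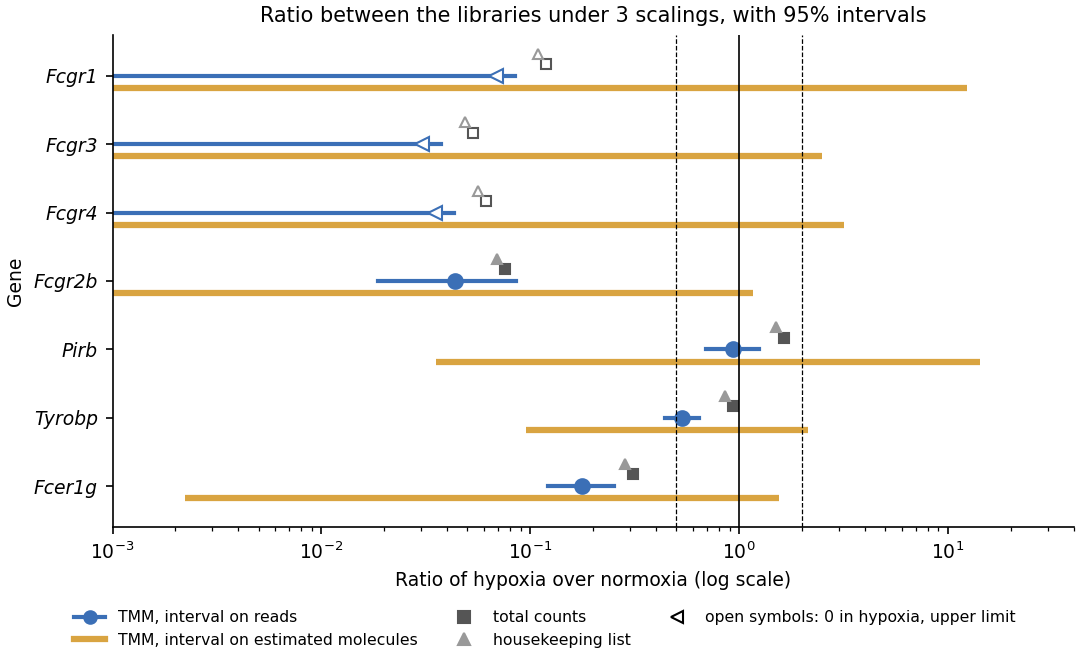
Ratio of hypoxia over normoxia (log axis) for the 7 members with at least 50 counts. Blue points give TMM with exact 95% intervals on reads, gold bars the intervals on estimated molecules, grey symbols other scalings, and open symbols upper limits for genes at 0 in hypoxia; dashed lines mark 2-fold. The gold bars all cross 1, and bars that reach the left edge run to or below the axis limit.

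Syk, the kinase gene that binds doubly phosphorylated ITAMs (ENSMUSG00000021457, chromosome 13, 52583173 to 52648792), was scarce in normoxia, with 11 counts, and had 0 in hypoxia. It did not pass the count minimum, and no ratio was formed. Its 5.07 CPM in normoxia (2.53 to 9.06) is lower than the 20.7 CPM that a 0 allows in hypoxia, so that no difference was detectable at this depth. In normoxia its 11 reads are 0.048 of an estimated molecule.

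Per length, on the authors' TPM scale, the members ranked in normoxia as Tyrobp at 2459 (2351 to 2571), Fcer1g at 1536 (1461 to 1613), Fcgr4 at 492 (457 to 529), Fcgr3 at 411 (383 to 439), Fcgr2b at 230 (218 to 241), Fcgr1 at 123 (111 to 136), Pirb at 91.4 (83.4 to 99.9) and Syk at 0.99 (0.494 to 1.77). No neighbours in this order had overlapping intervals on reads. In hypoxia Tyrobp stood at 1756 TPM (1457 to 2098), Fcer1g at 365 (252 to 513), Pirb at 115 (86.0 to 150) and Fcgr2b at 13.4 (5.77 to 26.4). The first 3 differ on reads. Fcgr2b did not differ from Fcgr4, Fcgr3 and Fcgr1, whose 0 allows up to 23.1, 16.7 and 11.2 TPM. The adaptors thus came first in both libraries, and Pirb moved from below all Fc gamma receptors to above them on reads. The ranks rest on few estimated molecules, for Pirb 2.12 in normoxia and 1.36 in hypoxia, and were not compared on molecules.

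The genes nearest to each member counted in both libraries, by distance in log2(CPM + 1) over the 2 libraries (Euclidean), were taken as the most alike in level. For Tyrobp they were Gm26870 (1791 and 115 counts, distance 0.14) and H2-K1 (1795 and 114, 0.15). For Fcer1g they were Atp5b (1668 and 38, 0.21) and Ube2d3 (1764 and 29, 0.24). For Pirb they were Ccdc125 (472 and 55, 0.07) and Myo1f (508 and 54, 0.07), and for Fcgr2b Rnf10 (1527 and 6, 0.41) and Igha (1148 and 7, 0.50). With 2 libraries such likeness describes levels only.

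Of 22 genes for receptors that signal through Tyrobp or Fcer1g, 19 were in the table and 9 measured. No gene was found under the symbols Pira1, Pira6 and Pira12. The Pirb copy Gm14548, with 0 counts in normoxia and 81 in hypoxia, was not on the list. Of the 9 measured genes 7 were called lower, all at 0 in hypoxia, 1 higher and 1 neither, which is 77.8% lower beside 75.6% over all genes. Their median log2 ratio was −2.97; this and the medians of the next 3 lists are values of genes at 0 in hypoxia, so limits set by the 3 counts. The signal-regulatory receptor genes Sirpb1a and Sirpb1b had 674 and 285 counts in normoxia, Cd300c2 had 481 and Trem3 261, all with 0 in hypoxia. Trem2, the lipid receptor that pairs with Tyrobp, had 196 and 0; it is named outside the rule for named genes, after its values were seen. The C-type lectin receptor gene Clec4e, which pairs with Fcer1g, had 181 and 22 counts, a ratio of 1.04. Its neighbour in function Clec4d had 0 and 45, under the count minimum. Cd300ld, with 154 and 46 counts, was 2.56-fold higher after TMM (1.80 to 3.58 on reads, 0.0407 to 827 on molecules).

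Among 32 genes that act with or after Syk, 17 were measured, 12 called lower, 2 higher and 3 neither, with a median of −2.95. This is 70.6% lower and 11.8% higher, beside 75.6% and 11.9% over all genes. The Src family kinase gene Lyn, which phosphorylates both kinds of motif, had 1171 counts and 19, 7.19-fold lower on reads. The adaptor gene Grb2 had 917 and 0, and Pik3ap1, which links receptors to phosphoinositide 3-kinase, had 679 and 0. The GTPase gene Rac2 had 1000 and 79, a ratio of 0.678, the exchange factor gene Vav1 515 and 65, a ratio of 1.08, and the phospholipase gene Plcg2 504 and 45, a ratio of 0.766. These 3 were called neither. On total counts their ratios were 1.18, 1.89 and 1.34, so that the direction of Rac2 and Plcg2 depended on the scaling. Called higher were Pik3cd, a phosphoinositide 3-kinase subunit gene, at 144 and 54 counts, 3.22-fold (reads, 2.31 to 4.43; molecules, 0.0696 to 1352), and Sos1 with 0 and 69. Malt1 with 0 and 46 counts and Fyn with 0 and 11 lay under the count minimum.

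Of 29 other ITIM receptors and negative regulators 28 were in the table and 16 measured, with 10 called lower, 2 higher and 4 neither, and a median of −2.92. This is 62.5% lower and 12.5% higher, beside 75.6% and 11.9% over all genes. The phosphatase gene Ptpn6, which ITIMs recruit, was at 1342 counts and 0, at least 52.2-fold lower on reads with an upper limit of 1.28 for the ratio on molecules. Another such phosphatase gene, Ptpn11, had 379 and 30, a ratio of 0.679. Lilrb4a had 1302 and 1, which gives 0.00659 (reads, 0.000167 to 0.0368), and Ptprc, the CD45 phosphatase gene of all leukocytes, had 1218 and 0. Sirpa, which sends the "do not eat" signal of CD47, had 872 and 64, a ratio of 0.629, Cd300a had 428 and 34, a ratio of 0.681, and Csk, the kinase that restrains Src kinases, 243 and 53, a ratio of 1.87. On total counts the ratios were 1.18 for Ptpn11, 1.10 for Sirpa and 1.19 for Cd300a, which turns their direction, and 3.26 for Csk, which is past the 2-fold rule. The lectin receptor genes Clec12a and Clec4a2 were called higher on reads, with molecule intervals of 0.314 to 73.2 and 0.128 to 269.5 that hold 1. They had 317 and 119 counts (3.22-fold; reads, 2.59 to 3.99) and 203 and 71 (3.00-fold; reads, 2.26 to 3.95).

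Other Fc-binding genes were scarce. Of 11, 3 were measured, all at 0 in hypoxia and called lower, with a median of −3.53. They were Fcgrt, the neonatal Fc receptor that recycles IgG, with 574 counts in normoxia, Fcrls with 298 and Trim21, the cytosolic antibody receptor, with 186. Over the 4 lists together 32 of 45 measured genes were called lower and 5 higher, which is 71.1% and 11.1%, beside 75.6% and 11.9% over all genes. No gene of the lists was called on the rule that asks for an interval on estimated molecules that excludes 1.

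**Figure D4:**
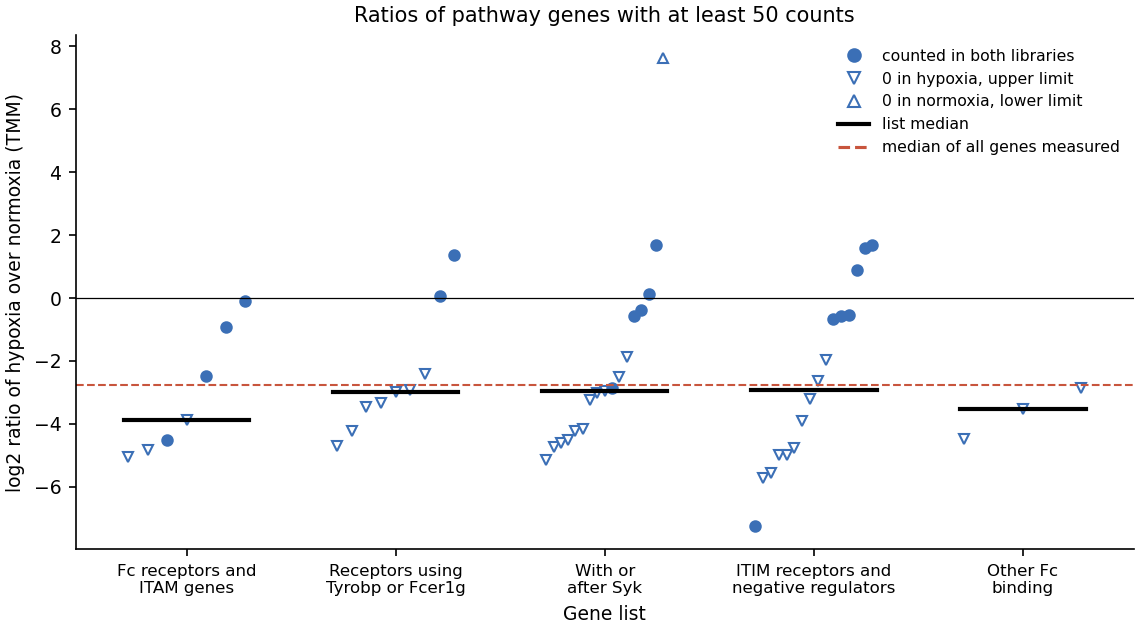
Log2 ratio of hypoxia over normoxia after TMM for each measured gene of the set and of the 4 pathway lists (filled, counted in both libraries; open, limits for genes at 0 in 1 library). Black lines are list medians, from −3.87 to −2.92, and the dashed line is the median of all genes measured, −2.75.

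The set was last put beside the markers of macrophages, monocytes and neutrophils, which all express most of it. Per 100 counts of macrophage markers the set held 54.1 counts in normoxia and 457 in hypoxia, where that list had only 47 counts. Per 100 counts of neutrophil markers it held 18.8 and 1.44, and per 100 counts of monocyte markers 71.3 and 48.8. The macrophage list itself had a ratio of 0.0288 after TMM (0.00122 to 0.147 on molecules), the monocyte list 0.356 (0.168 to 0.693 on molecules) and the neutrophil list 3.19 (2.66 to 3.83 on molecules). The part of each cell type in the members' values was not tested.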

How the data were processed

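For 2 libraries the deposited table holds raw counts, whole numbers of reads assigned to each gene. The authors also deposited TPM values (per length, scaled to a fixed total), whose ratio to the counts differed between the libraries by the same factor for all genes checked (11.5), so TPM is no separate measurement. Reads had been demultiplexed (bcl2fastq 2.20), aligned (STAR 2.5.2b) and counted (featureCounts, Subread 1.5.2), per the submitters' processing notes. Build, annotation, strand setting and duplicate removal were not given there. Of the column codes, the hypoxia column was assigned by its initial alone, since its number, 19, matches no label.

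Counts were scaled by TMM with edgeR 4.0.16 in R 4.3.3. Intervals are exact at 95% (Clopper-Pearson for shares, conditional binomial for ratios, Poisson for levels), on reads or on counts divided by the estimated reads per molecule, and cover counting error only, since no molecular identifiers are mentioned. A 0 was taken as 3 counts, and each limit given for a gene at 0 on reads rests on this. The exact interval on reads reaches further, to a TMM ratio of 0.0843 for Fcgr1, 0.0375 for Fcgr3, 0.0433 for Fcgr4 and 0.0236 for Ptpn6. Alternatives were total counts, DESeq2 1.42.0 size factors, a list of 15 housekeeping genes (1.72% of counts in normoxia and 1.88% in hypoxia), total counts without red cell genes, TPM, no count minimum, a 4-fold threshold, and molecule-based limits. The scripts were tested on simulated data with counting error on reads only and a small part of the genes changed. Those data hold no sampling of molecules. The test therefore does not cover the molecule intervals or a library with so many genes at 0. Positions, transcripts and motifs came from GENCODE M21, which holds 48970 of the table's identifiers, and the build the authors used may be another one.

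Named are the 8 members, in each pathway list the 4 measured genes with most counts and each gene counted in hypoxia, and the 2 genes nearest to each member counted in both libraries. The members and lists were chosen with earlier results of these data known. Marker lists for dendritic cells (0.00511% of counts in normoxia, 0 in hypoxia), fibroblasts (0.0483% and 0), endothelium (0 in both), neurons (0 and 0.0414%) and glia (0.588% and 0.212%, mostly Apoe) were also summed.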

Additional observations from a re-analysis of the deposited data

How the results depend on the processing

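No paired analysis was possible because each group has 1 library, and for the same reason no library could be left out. Counts of genes rest on reads: over all genes 3185 were called lower, 325 with each 0 taken as 3 estimated molecules. Under that setting, 2 members (Fcgr2b and Fcer1g) were called lower in place of 5, and 2 pathway genes in place of 32, and the upper limits of the ratio turned above 1, at 2.66 for Fcgr1, 1.19 for Fcgr3 and 1.37 for Fcgr4. The rule that asks for a molecule interval excluding 1 called 0 members lower, 0 pathway genes lower and 0 higher. Pathway genes called higher went from 5 to 6 on total counts, the housekeeping list and TPM, to 8 with no count minimum, where more genes were measured, and to 1 at the 4-fold threshold. The summed ratio of 0.244 was 0.425 on total counts, 0.417 on total counts less the red cell genes, 0.390 on the housekeeping list, 0.326 on TPM and 0.143 without Tyrobp; it stayed below 1 in each. Of 40 alternative values for single members, 13 lay within the interval of the reported value, 24 outside it, and 3 are the upper limits above 1 given above, which show no direction. Among the 24, Pirb crossed 1, from 0.937 to 1.64 on total counts, 1.61 on total counts less red cell genes, 1.26 on TPM and 2.36 summed with its copies (chosen after seeing the data), and it was also above 1 on the housekeeping list. Depth limits all values: 1 of the 8 members exceeds 3 estimated molecules in hypoxia.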
